A study of Mus musculus with 8 samples.

Results

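The Hox cluster genes are the protein-coding genes that the GENCODE M21 mouse annotation names Hoxa, Hoxb, Hoxc or Hoxd with a number. The rule gave 39 genes of the 53379 in the count files, and 38 of them are described here: 10 in HoxA, 10 in HoxB, 9 in HoxC and 9 in HoxD. Counts, sums and shares of members below refer to these 38. Hox genes encode homeodomain transcription factors that give cells their position along the head-to-tail axis of the embryo. Within a cluster all members are read from the same strand, and their order along the chromosome follows their order of use in the body: low-numbered members at the 3′ end act towards the head and high-numbered members at the 5′ end towards the tail and the ends of the limbs. Silencing by Polycomb proteins and activation by Trithorax and MLL proteins hold these states through cell division, and adult tissues, the mammary gland among them, keep part of them.

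Messenger RNA was measured in 4 mouse mammary carcinoma cell lines of the C57BL/6 background, grown as adherent monolayers without further treatment, with 2 libraries per line. The lines pB2 and pB3 came from MMTV-PyMT tumours, in which a mouse mammary tumour virus promoter drives the polyoma middle T oncogene in mammary epithelium. The lines Epcam hi and 687g came from tumours of MMTV-PyMT-Snail-IRES-YFP reporter mice, so that all 4 lines share the oncogene. Each group is 1 established line, the labels give neither its clonality nor the age of the donor animals, and nothing says whether the replicates were separate cultures: p-values measure the spread between these libraries, which may be technical. A line stands for a single origin, and with 2 lines from each mouse model a difference between models and a difference between lines cannot be told apart.

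The libraries held 12442730 to 19149916 counts. Of these, 5 to 988 per library fell on the members, at most 0.00585% of the total, so that all statements below rest on small counts. All 10 epithelial markers examined had counts in every line, but their summed level ranged from 1277 to 6631 CPM (read counts relative to the library total, scaled by TMM factors), and Epcam itself was 1408 to 1535 CPM in Epcam hi, 552 to 578 in pB2, 264 to 278 in pB3 and 3.69 to 3.85 in 687g. The summed level was at most 2.79 CPM for 6 leukocyte markers, 0.94 CPM for 4 endothelial markers and 0.109 CPM for 4 adipocyte markers.

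Upstream stretches of 3 genes are shown because these carry the main contrasts between the lines: Hoxa10, the most abundant member in pB2 and pB3, Hoxa13, which had counts in pB2 and 1 count elsewhere, and Hoxb4, which stands for a cluster read in pB3. Each is the 250 bases before a RefSeq transcript start (GRCm38.p6), written 5′ to 3′ on the strand of the gene, with CpG dinucleotides, the sites of DNA methylation, in capitals.
Hoxa13, chr6:52260881-52261130, minus strand: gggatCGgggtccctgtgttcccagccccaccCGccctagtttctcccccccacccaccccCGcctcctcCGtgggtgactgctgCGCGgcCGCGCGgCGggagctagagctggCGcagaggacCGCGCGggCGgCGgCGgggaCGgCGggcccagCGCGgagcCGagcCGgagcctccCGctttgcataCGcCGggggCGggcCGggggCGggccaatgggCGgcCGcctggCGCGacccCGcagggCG
Hoxa10, chr6:52234940-52235189, minus strand: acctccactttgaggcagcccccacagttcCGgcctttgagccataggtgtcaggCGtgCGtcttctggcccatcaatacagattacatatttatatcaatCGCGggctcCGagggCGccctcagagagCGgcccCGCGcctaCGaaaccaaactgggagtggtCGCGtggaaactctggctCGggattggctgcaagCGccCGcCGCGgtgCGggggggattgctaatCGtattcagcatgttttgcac
Hoxb4, chr11:96318017-96318266, plus strand: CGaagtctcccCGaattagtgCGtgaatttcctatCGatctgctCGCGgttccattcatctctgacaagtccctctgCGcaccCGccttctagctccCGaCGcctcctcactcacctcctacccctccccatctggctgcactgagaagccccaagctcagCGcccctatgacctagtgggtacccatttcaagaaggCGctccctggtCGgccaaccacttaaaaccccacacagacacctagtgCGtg
None of these overlaps an annotated exon. The Hoxa13 stretch holds 35 CpG dinucleotides at 80.0% G and C, the Hoxa10 stretch 20 at 59.2% and the Hoxb4 stretch 14 at 58.0%. A further Hoxa10 start, upstream at chr6:52240855-52241104, has 7 CpG dinucleotides at 51.6%.

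RefSeq promoters were matched for 22 of the 38 members, with 24 starts. Their 250 upstream bases had a median of 12.5 CpG dinucleotides and 58.6% G and C, against 6 and 52.4% over all 32851 promoters in the table. The 9 starts of genes detected in a line had a median of 14.0 CpG dinucleotides and the 15 starts of the others a median of 12.0, with ranges of 3 to 35 and 2 to 31 that overlapped. Both strands were searched for 3 motifs. CACCTG, an E-box bound by ZEB and SNAIL factors, was in 0 of the 24 and in 17.2% of all promoters. TGATTNAT, a composite site for PBX and HOX proteins, was in 2 of the 24, Hoxa2 and Hoxd11, and in 2.82% of all. TATAAA was in 4 starts, of Hoxa10, Hoxb8, Hoxd4 and Hoxd13, and in 12.4% of all. These matches describe letters in a window and not binding.

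Of the 38 members, 11 had no count in any library: Hoxb1, Hoxb13, Hoxc4, Hoxc11, Hoxc12, Hoxd3 and Hoxd9 to Hoxd13. Another 16 had counts without reaching 1 CPM in both libraries of any line, the level used here for detection. The other 11 were detected, 8 in HoxA and 3 in HoxB. By line, 8 of the 38 were detected in pB3, 6 in pB2, 1 in 687g and 0 in Epcam hi. In counts summed over both libraries, 18 had more than 3 counts in pB3, 11 in pB2, 5 in 687g and 0 in Epcam hi. For a member at 0 in a line, the floor of 3 counts over both libraries allows a level of up to 0.0914 CPM in 687g, 0.0922 in Epcam hi, 0.0926 in pB2 and 0.0989 in pB3, for counting error only. In bulk RNA, fewer cells with a transcript and less transcript per cell cannot be told apart.

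**Figure D1:**
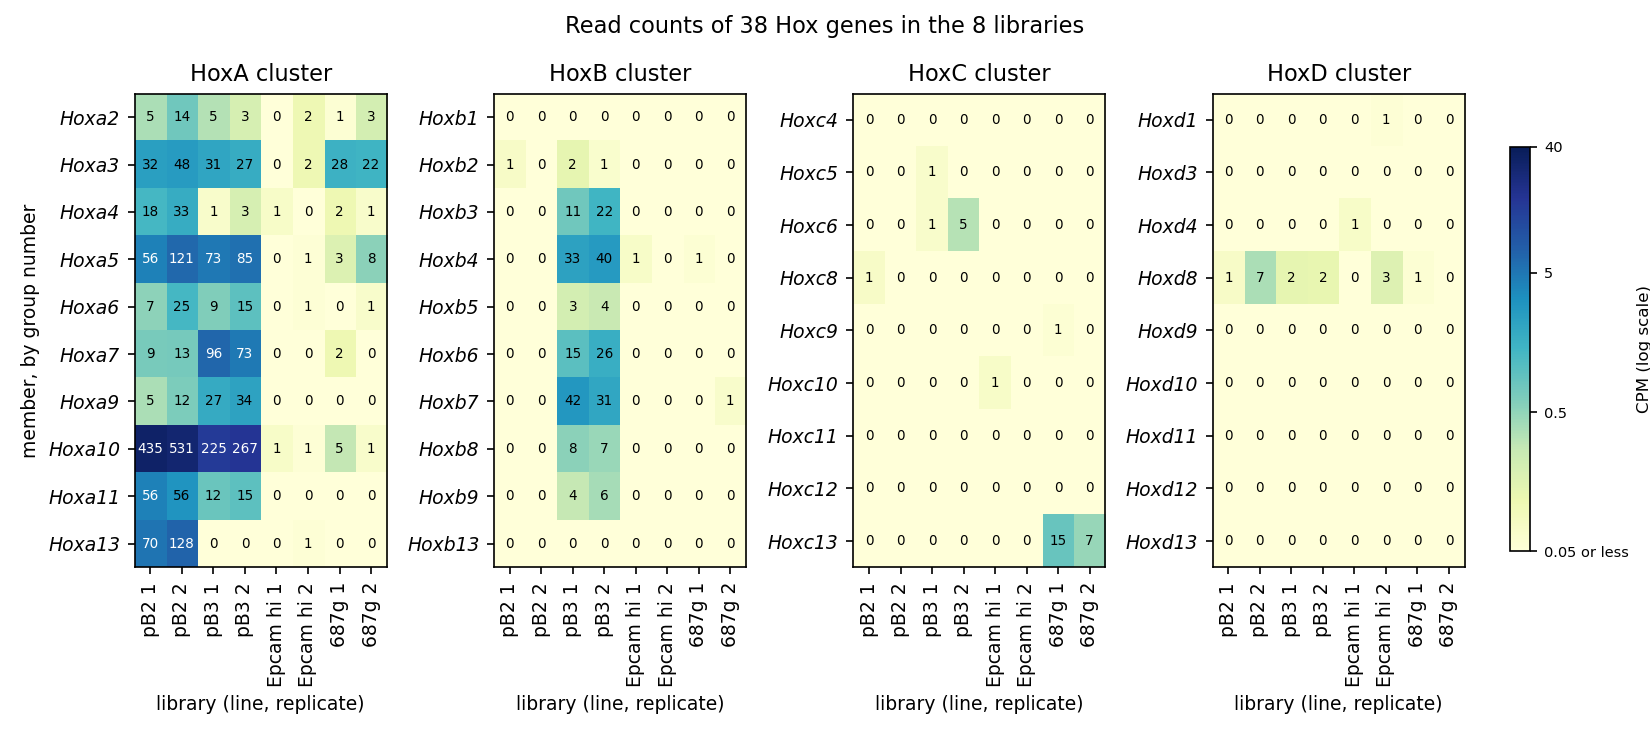
Raw read counts of the 38 members (rows, by group number within each cluster) in the 8 libraries (columns); the printed numbers are counts and the colour is CPM on a log scale, with 0.05 CPM and below in the palest shade. All HoxA members shown have counts in pB2 and all but Hoxa13 in pB3, 8 HoxB members have counts in both pB3 libraries, and Hoxa3 and Hoxc13 stand out in 687g.

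Summed over the 10 members described, HoxA reached 51.3 CPM in pB2 replicate 1 and 52.0 in replicate 2. The pB3 libraries reached 32.2 and 33.8 CPM, the 687g libraries 2.29 and 2.42, and the Epcam hi libraries 0.141 and 0.437. The lines did not overlap. HoxB reached 7.92 and 8.86 CPM in pB3 and at most 0.074 CPM in any other library. HoxC was highest in 687g, at 0.892 and 0.470 CPM, and HoxD reached at most 0.371 CPM in any library. HoxA gave 99.4% of the summed CPM in pB2, 79.0% in pB3, where HoxB gave 20.1%, and 75.3% in 687g, where HoxC gave 21.8%. In Epcam hi the 38 members had only 17 counts over both libraries, too few for shares. Single members weighed heavily: Hoxa10 took 57.4% of the members' counts in pB2 and 38.8% in pB3, and Hoxa3 took 48.5% in 687g.

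**Figure D2:**
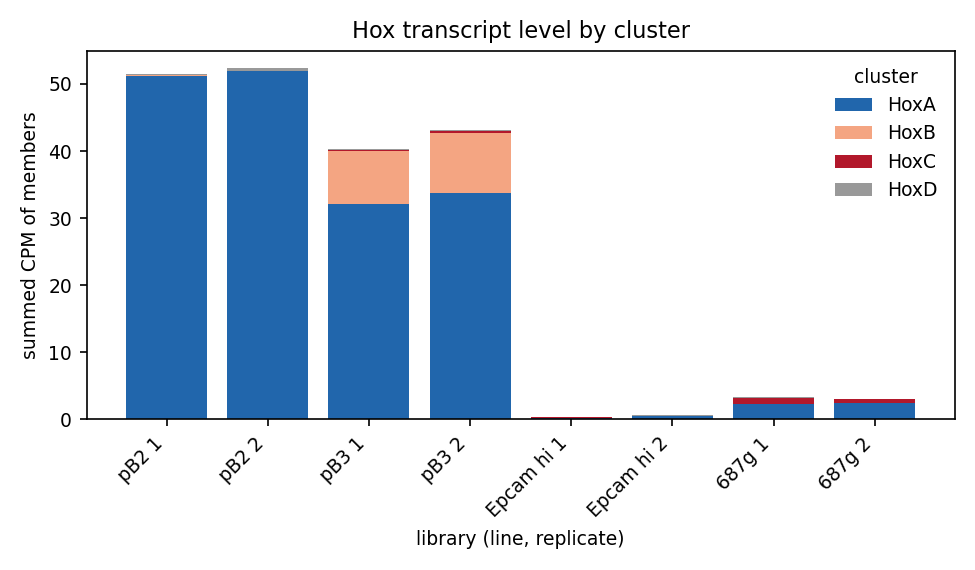
Summed CPM of the members of each Hox cluster (stacked bars, linear axis from 0) in each of the 8 libraries. HoxA makes up most of the pB2, pB3 and 687g bars, HoxB adds 7.92 and 8.86 CPM in the pB3 libraries, and the Epcam hi and 687g libraries reach at most 3.29 CPM in all.

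Tests used edgeR's quasi-likelihood F test on all 15890 genes that passed a filter on low counts, with p-values adjusted by Benjamini-Hochberg over all of them. A gene was called when its adjusted p was under 0.05. Errors of log2 fold changes are standard errors derived from this test, the absolute change divided by the square root of F. The filter kept 13 members, 9 of HoxA (Hoxa2 did not pass) and 4 of HoxB, and none of HoxC or HoxD. Several of the 13 passed only through the line in which they were high, so that a difference was built into their selection. Among them are Hoxa4 and Hoxa13, through pB2, and the 4 HoxB members, through pB3. All 13 were called for any difference among the 4 lines, against 66.5% of all genes tested; DESeq2 called 11 of the 13. A fold against a line without counts is a lower bound, set against 3 counts over that line. With 1 to 3 counts in the lower line a count ratio is given with its exact 95% Poisson interval, which covers counting error only.

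The HoxA cluster lies on the minus strand of chromosome 6. Towards its 3′ end, Hoxa2, which patterns the second pharyngeal arch, had 5 and 14 counts in pB2, 5 and 3 in pB3, 1 and 3 in 687g, and 0 and 2 in Epcam hi, and was not tested. Hoxa3, which acts in the thymus, parathyroid and neck, had 32 and 48 counts in pB2, 31 and 27 in pB3, 28 and 22 in 687g, and 0 and 2 in Epcam hi. Epcam hi stood far below the other 3 lines, which ran from 1.48 to 2.54 CPM per library. The count ratio of 687g to Epcam hi was 24.8 (interval 6.51 to 210.1, adjusted p = 0.000313, edgeR), and that of pB2 to Epcam hi was 40.2 (10.8 to 337, adjusted p = 4.06e-05, edgeR). Between pB3 and pB2 the log2 difference was -0.36 ± 0.47 (adjusted p = 0.573, edgeR), and between 687g and pB3 it was -0.33 ± 0.48 (adjusted p = 0.689, edgeR). In 687g, Hoxa3 stood between near-empty neighbours, with 4 counts in all for Hoxa2 and 3 for Hoxa4. The annotated gene runs from 52169062 to 52213336, past Hoxa4, Hoxa5 and Hoxa6, and its exons share 482 of 6014 bases with Gm28308 on the same strand, so that its counts do not say which transcript start was used.

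Hoxa4, Hoxa5 and Hoxa6 are members of the middle of the cluster, used in the neck and trunk, Hoxa5 with a known role in the lung. Hoxa4 had 18 and 33 counts in pB2 and at most 3 in any other library, and was lower in pB3 than in pB2 by 11.8 times (log2 -3.48 ± 0.72, adjusted p = 0.00125, edgeR). Without pB3 replicate 1 that adjusted p was 0.0533. Hoxa5 had 56 and 121 counts in pB2, 73 and 85 in pB3, 3 and 8 in 687g, and 0 and 1 in Epcam hi. The pB2 and pB3 libraries overlapped, and their log2 difference of -0.03 ± 0.42 was not distinguishable from 0 (adjusted p = 0.970, edgeR). The count ratio of pB2 to Epcam hi for Hoxa5 was 178 (interval 31.5 to 7058, adjusted p = 3.53e-06, edgeR), and pB3 stood 14.8 times above 687g (log2 -3.90 ± 0.55 for 687g, adjusted p = 0.000111, edgeR).

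Hoxa5 was also higher in 687g than in Epcam hi, with a count ratio of 10.9 (interval 1.58 to 469, adjusted p = 0.0317, edgeR). This rests on 11 counts against 1: the adjusted p was 0.219 without 687g replicate 2, 0.134 without Epcam hi replicate 1 and 0.0658 with DESeq2. Hoxa6 had 7 and 25 counts in pB2, 9 and 15 in pB3, and 1 in all in each of the other lines. Its difference between pB3 and pB2 was -0.26 ± 0.64 (adjusted p = 0.779, edgeR). The ratio of pB2 to Epcam hi was 32.1 (5.37 to 1308, adjusted p = 0.00183, edgeR; 0.0592 without pB2 replicate 2), and that of pB3 to 687g was 26.0 (4.23 to 1068, adjusted p = 0.0069, edgeR; 0.0707 without pB3 replicate 2 and 0.0968 without 687g replicate 1).

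Hoxa7 and Hoxa9 were higher in pB3 than in pB2. Hoxa7, a trunk gene, had 96 and 73 counts in pB3, 9 and 13 in pB2, 2 and 0 in 687g and none in Epcam hi. It was 8.25 times higher in pB3 than in pB2 (log2 3.03 ± 0.54, adjusted p = 0.000478, edgeR). Hoxa9, which acts in blood stem cells and is a known target of MLL fusion proteins in leukaemia, had 27 and 34 counts in pB3 and 5 and 12 in pB2, with none in the other lines. Its excess in pB3 was 3.99-fold (log2 1.95 ± 0.56, adjusted p = 0.0142, edgeR). That call was lost without any one of the 4 libraries, at adjusted p values of 0.2 and 0.0885 without pB2 replicate 1 or 2 and 0.0892 and 0.168 without pB3 replicate 1 or 2, and was 0.110 with DESeq2.

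The 5′ end turned the other way. Hoxa10, which acts in the uterus and in blood and bone formation, had 435 and 531 counts in pB2, 225 and 267 in pB3, 5 and 1 in 687g, and 1 and 1 in Epcam hi, or 30.2 ± 2.9, 16.2 ± 1.5, 0.173 ± 0.15 and 0.0625 ± 0.011 CPM (SD, n = 2 each). Both pB2 libraries were above both pB3 libraries. The ratio of pB2 to pB3 was 1.86 (log2 -0.90 ± 0.23 for pB3, adjusted p = 0.00619, edgeR), with adjusted p values of 0.0738 without pB2 replicate 1 and 0.0916 without pB3 replicate 1. Far larger were the count ratio of pB2 to Epcam hi, 485 (interval 134 to 4010, adjusted p = 2.09e-09, edgeR), and the ratio of pB3 to 687g, 93.6 (log2 -6.42 ± 0.39, adjusted p = 4.25e-08, edgeR). Hoxa11, a gene of the uterus and the forearm, had 56 and 56 counts in pB2 and 12 and 15 in pB3, with none in the other lines. It was 4.0 times lower in pB3 (log2 -1.99 ± 0.51, adjusted p = 0.007, edgeR), with adjusted p values of 0.110 without pB2 replicate 1, 0.0849 without pB3 replicate 1 and 0.0543 without pB3 replicate 2.

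Hoxa13, the last gene of the cluster and a regulator of the hand, foot and urogenital tract, gave the sharpest boundary between pB2 and pB3. It had 70 and 128 counts in pB2, 0 in both pB3 and both 687g libraries, and 1 count in 1 Epcam hi library. Hoxa13 was at least 61.8-fold higher in pB2 than in pB3 (adjusted p = 8.88e-06, edgeR), and its count ratio to Epcam hi was 199 (interval 35.3 to 7890, adjusted p = 1.04e-05, edgeR). In pB3, Hoxa11 had 27 counts over both libraries, at 0.888 ± 0.12 CPM (SD, n = 2) and so under the detection level of 1 CPM, and Hoxa13 had 0.

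**Figure D3:**
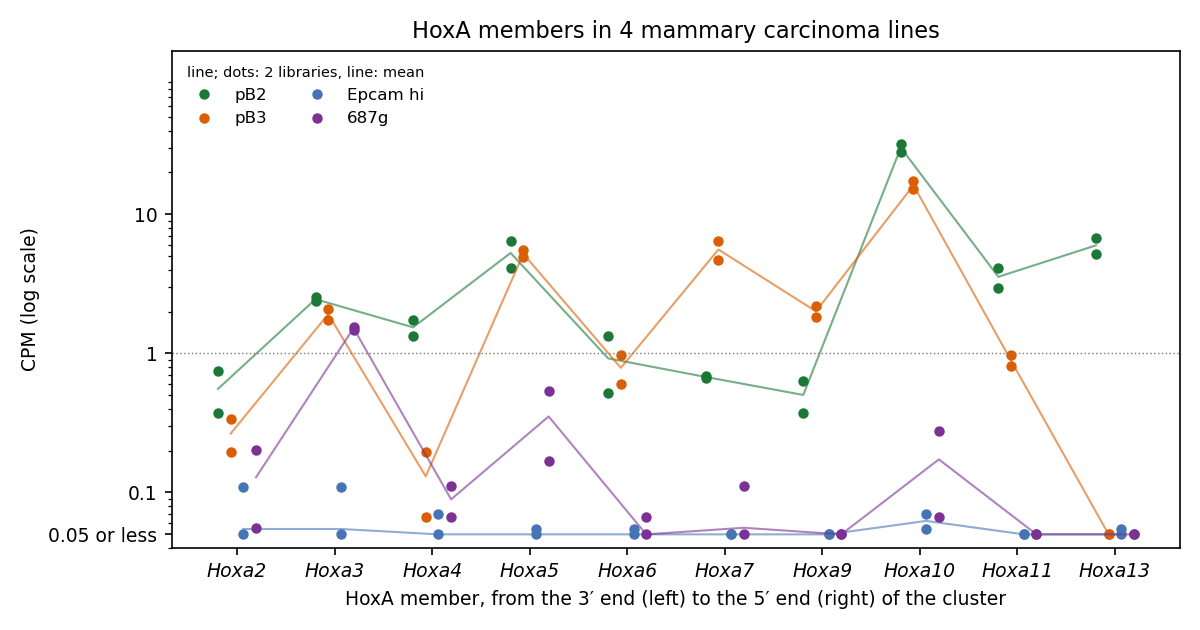
CPM (log axis, 0.05 and below drawn at the bottom) of the 10 HoxA members described, in their order along the cluster, for the 4 lines; dots are the 2 libraries of a line, lines join the means and the dotted line is 1 CPM. The pB2 and pB3 profiles part at Hoxa4, Hoxa7, Hoxa9, Hoxa11 and Hoxa13, 687g is above 1 CPM at Hoxa3, and Epcam hi stays at or below 0.11 CPM.

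Levels of different genes can be set side by side per kilobase of exon (RPKM, with the union exon length of the annotation). In pB2 the order was Hoxa10 at 9.22 RPKM, Hoxa5 at 2.81, Hoxa13 at 2.42 and Hoxa11 at 1.55. The ranges of Hoxa5 and Hoxa13 (SD 0.85 and 0.46, n = 2) do not separate them. In pB3 Hoxa10 at 4.95 RPKM was followed by Hoxa5 at 2.77, Hoxa7 at 1.94 and, from the other cluster, Hoxb7 at 1.56. In 687g, Hoxa3 reached 0.253 RPKM.

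The HoxB cluster, on chromosome 11 from 96194316 to 96368256 on the plus strand, was read in pB3. Hoxb4, known for its effect on blood stem cell growth, had 33 and 40 counts there. Hoxb7, which acts in the rib cage and is often studied in breast carcinoma, had 42 and 31, Hoxb6 had 15 and 26, and Hoxb3 had 11 and 22. Over the 6 libraries of the other lines, Hoxb3 and Hoxb6 had 0 counts, Hoxb7 had 1 and Hoxb4 had 2, so that no library of another line overlapped pB3. Hoxb4 and Hoxb7 were at least 26.0-fold higher in pB3 than in pB2 (adjusted p = 6.3e-05 and 9.24e-05, edgeR), Hoxb6 at least 14.6-fold (0.000481) and Hoxb3 at least 11.7-fold (0.000941). With DESeq2 the adjusted p was 0.265 for Hoxb6 and 0.292 for Hoxb3.

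The remaining HoxB members lay below the filter. Hoxb8 had 8 and 7 counts, Hoxb9 had 4 and 6, and Hoxb5 had 3 and 4, all in pB3 alone, and Hoxb2 had 2 and 1 in pB3 and 1 in pB2. Counts in pB3 thus ran unbroken from Hoxb2 to Hoxb9, with 0 in the outermost genes Hoxb1 and Hoxb13. At the depth of pB3 a count of 0 allows up to 0.0989 CPM. Against 687g, Hoxb4 and Hoxb7 had a count ratio of 79.0 each (interval 13.7 to 3162, adjusted p = 0.000255 and 0.000359, edgeR), Hoxb6 was at least 14.8-fold higher in pB3 (0.000953) and Hoxb3 at least 11.9-fold (0.00182). In that pair too the DESeq2 values were 0.341 for Hoxb6 and 0.374 for Hoxb3.

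HoxC and HoxD were nearly silent. In HoxC (chromosome 15, 102921103 to 103036852), Hoxc13, a gene of hair and nail formation, had 15 and 7 counts in 687g and 0 in the other 6 libraries, or 0.836 and 0.470 CPM in 687g. It did not reach the filter, and 687g was at least 7.26-fold above Epcam hi. Tested without a filter on low counts, Hoxc13 differed at an adjusted p of 0.00115 from Epcam hi and 0.00237 from pB3 (edgeR). Hoxc6, a gene of the trunk also linked to mammary development, had 1 and 5 counts in pB3, and Hoxc5, Hoxc8, Hoxc9 and Hoxc10 had 1 count each. In HoxD (chromosome 2, 74668310 to 74765142), Hoxd8 had 1 and 7 counts in pB2, 2 and 2 in pB3, 1 and 0 in 687g and 0 and 3 in Epcam hi, which overlap. Hoxd1 and Hoxd4 had 1 count each. Hoxd3 and Hoxd4 share 62.4% and 52.3% of their exon bases with other genes on the same strand, and reads there may have been left uncounted.

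Counted over the pair from MMTV-PyMT tumours, 6 of the 13 tested members were higher in pB3 than in pB2 (Hoxa7, Hoxa9, Hoxb3, Hoxb4, Hoxb6, Hoxb7), against 21.6% of all genes tested, and 4 were lower (Hoxa4, Hoxa10, Hoxa11, Hoxa13), against 23.2%. This count of 10 fell to 6 without pB3 replicate 1. For 687g against Epcam hi, 2 of the 13 were higher (Hoxa3, Hoxa5), against 18.4%, a share near that of all genes, and 0 were lower, against 18%. The other 11 had at most 6 counts over either line, so that few of them could have been called and these shares say little. With only these 2 lines fitted, 1 member passed the filter and was called. With DESeq2 the call of Hoxa5 was lost. Across the models, 0 of the 13 were higher in Epcam hi than in pB2, against 25.8%, and 9 were lower (Hoxa3, Hoxa4, Hoxa5, Hoxa6, Hoxa7, Hoxa9, Hoxa10, Hoxa11, Hoxa13), against 25.6%. In 687g, 0 were higher than in pB3, against 12.8%, and 10 were lower (Hoxa5, Hoxa6, Hoxa7, Hoxa9, Hoxa10, Hoxa11 and the 4 HoxB members), against 12.9%. The 4 HoxB members passed the filter only through pB3, so that their calls in both pairs with pB3 were built into their selection. Hoxa4 and Hoxa13 passed only through pB2, so that their lower calls in both pairs with pB2 were built in as well. In Epcam hi and pB2 the HoxB members had at most 1 count over each line, too few for a call. Over both Epcam hi libraries each of the 13 had at most 2 counts, so all passed the filter through other lines. A higher call in Epcam hi was therefore out of reach, and the selection favoured lower calls. In 687g only Hoxa3 had more than 11 counts, so the same holds there for the others. The shares of all genes are no fair measure for these counts. Of the 9 tested HoxA members, Epcam hi had 0 counts for Hoxa7, Hoxa9 and Hoxa11, and 687g for Hoxa9, Hoxa11 and Hoxa13. The difference between the contrasts of the 2 mouse models was called for 4 of the 13 members, or 30.8%, a smaller share than the 37.7% of all genes. Fewer were called whenever a single library was left out.

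Other markers moved along with the lines. The 6 fibroblast markers summed to 60.4 to 81.0 CPM in pB2, 15.1 to 17.8 in pB3, 2.35 to 2.81 in Epcam hi and 15.8 to 21.1 in 687g. Lum and Col1a2 were at 0 in pB2, Lum, Col1a2 and Dcn in pB3, and Dcn and Col1a2 in 687g. In pB2 the sum came mainly from Pdgfra at 43.6 and 59.6 CPM and Col1a1 at 16.1 and 20.7. In pB3 it came mainly from Pdgfra at 13.4 and 15.5 CPM. In 687g it came mainly from Pdgfrb at 13.5 and 8.12 CPM and Pdgfra at 6.08 and 5.97. The 6 mesenchymal markers summed to 186 to 274 CPM in pB2, 4768 to 4890 in pB3, 2839 to 3020 in Epcam hi and 7822 to 16510 in 687g, none of them at 0 in any line. In Epcam hi nearly all of the sum was Fn1, at 2791 and 2949 CPM. Vim was 21.3 and 32.4 CPM in Epcam hi and 13.8 and 14.1 in pB2, against 2307 and 2429 in pB3 and 3384 and 2332 in 687g. Zeb1 and Prrx1 were also far lower in Epcam hi and pB2 than in pB3 and 687g. The 10 epithelial markers summed to 1413 to 1501 CPM in pB2, 2949 to 3152 in pB3, 6310 to 6631 in Epcam hi and 1277 to 1420 in 687g. In 687g the sum came mainly from Krt18 at 1159 and 1068 CPM and Krt8 at 250 and 201, with Cdh1 at 1.90 and 0.738. The part of all these markers in the Hox differences was not tested.

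Genes inside and around the clusters were higher in some pairs of lines and lower in others. The 4 spans hold 46 other annotated genes, of which 7 were tested. At the 3′ end of HoxA, the antisense RNA Hotairm1 was present in all lines, with 71 and 132 counts in pB2, 134 and 126 in pB3, 123 and 149 in 687g, and 184 and 226 in Epcam hi. Gm15050, further along the same end, had 18 and 42, 40 and 41, 115 and 152, and 145 and 222 counts in the same order. It was higher in Epcam hi than in pB2 (log2 2.62 ± 0.34, adjusted p = 2.06e-05, edgeR) and in 687g than in pB3 (1.63 ± 0.33, adjusted p = 0.00209), the pairs in which 9 and 10 members were lower. Hotairm1 was higher in Epcam hi than in pB2 (1.04 ± 0.26, adjusted p = 0.00436), and between 687g and pB3 its difference was -0.03 ± 0.26 (adjusted p = 0.966). Between these genes lie Gm27477 and Hoxaas2, both tested. Hoxaas2 was higher in Epcam hi than in pB2 (2.21, adjusted p = 0.0183, edgeR) and not called between 687g and pB3 (0.99, adjusted p = 0.425). Gm27477 was called in neither pair (-0.23 and 0.04, adjusted p = 0.693 and 0.971, edgeR).

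Further along HoxA, Hoxaas3, which lies antisense to Hoxa3 and Hoxa7, had 26 and 37 counts in pB2 and at most 6 in any other library, and was lower in pB3 (log2 -3.80 ± 0.90, adjusted p = 0.00338, edgeR). That matches the direction of Hoxa4 and not that of Hoxa7, which was higher in pB3. The transcript 9530018H14Rik had 10 and 13 counts in pB2 and 0 in the other 6 libraries, as Hoxa13 had but for 1 count. Hoxa11os, antisense to Hoxa11, had 8 and 6 counts in pB3 and 1 in pB2, against the direction of Hoxa11 itself, and was not tested.

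Within 1 Mb of the cluster edges, the median log2 fold change of pB3 against pB2 was -0.30 over 10 tested genes at HoxA (2 higher, 3 lower), -0.29 over 40 at HoxB (7 higher, 15 lower), 0.52 over 34 at HoxC (15 higher, 3 lower) and 0.10 over 9 at HoxD (2 higher, 2 lower), beside 0.02 over all genes tested. For 687g against pB3 the medians were -0.20 at HoxA (3 of 10 lower, 0 higher) and 0.03 at HoxB (4 higher, 4 lower). The neighbours of HoxB had a median below 0 in pB3 against pB2, and its 4 tested members were at least 11.7-fold higher. What part the surrounding region has in the HoxB difference was not tested. Around HoxC, 687g exceeded Epcam hi by a median of 0.54, with 15 genes higher and 5 lower of 34, in the same direction as Hoxc13. These medians depended on the window: within 5 Mb the HoxC value was 0.16 (29 higher and 20 lower of 103), and for pB3 against pB2 the medians were 0.05 at HoxA, -0.14 at HoxB, 0.12 at HoxC and -0.20 at HoxD.

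**Figure D4:**
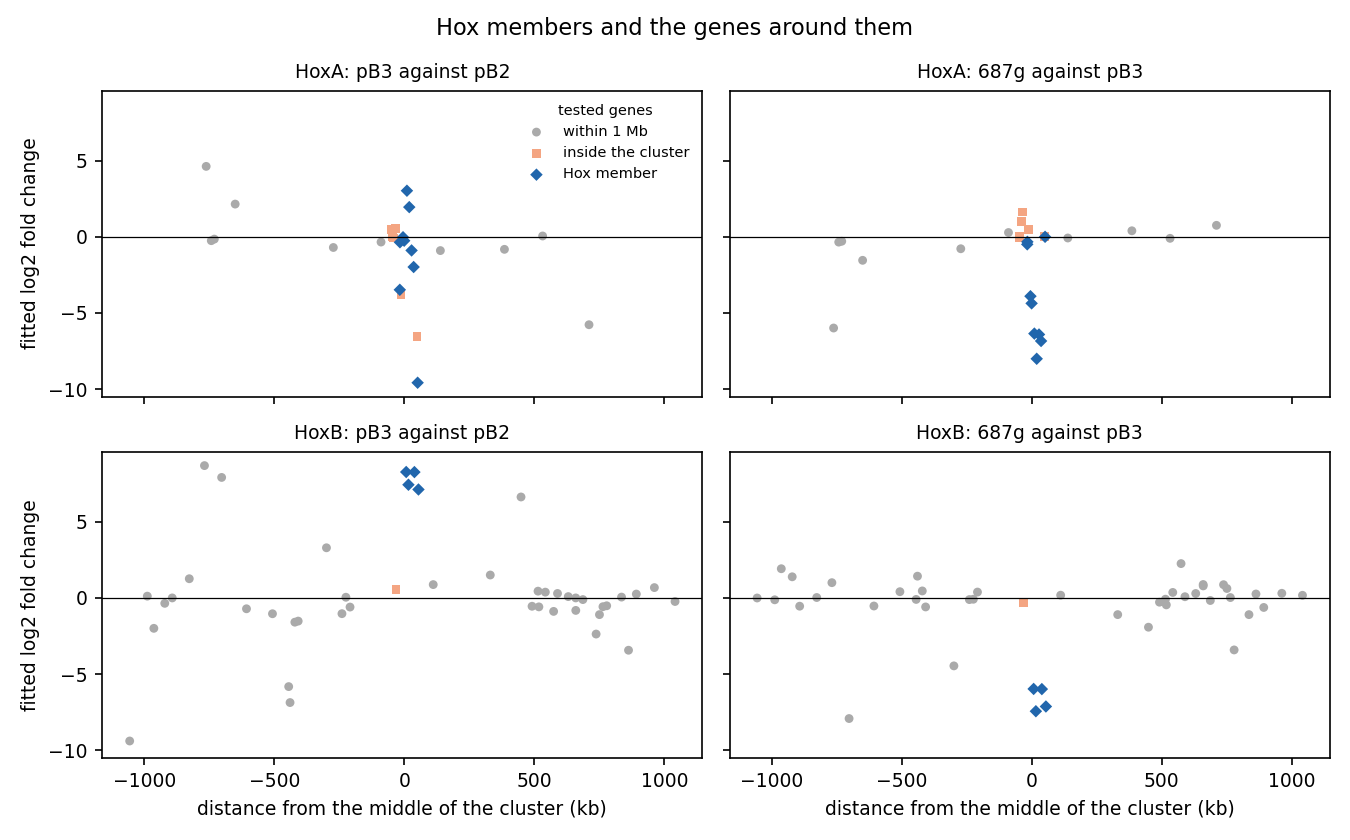
Fitted log2 fold changes (vertical) of the tested genes in HoxA and HoxB and within 1 Mb of their edges, by distance from the middle of the cluster in kb; diamonds are members, squares other genes inside the cluster, grey dots the neighbours. Members at 0 counts in a line have fitted values that depend on the fit and are no measured fold. The 4 HoxB members stand together above 0 for pB3 against pB2, while the HoxA members spread to both sides.

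Genes whose products work with Hox factors or set their expression were examined as lists. Their counts of called genes are read against the shares of all genes tested, 21.6% higher and 23.2% lower for pB3 against pB2 and 18.4% higher and 18% lower for 687g against Epcam hi. Hox proteins bind DNA together with PBX, MEIS and PKNOX cofactors, and all 9 cofactor genes were tested. For pB3 against pB2, 3 of the 9 were higher and 2 lower, the latter share near that of all genes, with a median log2 change of 0.10. Meis2 was higher (3.13 ± 0.33, adjusted p = 3.23e-06, edgeR), at 13.0 ± 0.90 CPM against 1.45 ± 0.58 (SD, n = 2 each), and both other tested genes within 1 Mb of it were also higher, with a median of 2.66. For 687g against Epcam hi, 6 were higher and 1 lower with a median of 1.46, beside -0.03 over all genes, among them Meis3 (1.60 ± 0.23) and Pbx3 (1.46 ± 0.29), with adjusted p values of 9.2e-05 and 0.00115 (edgeR).

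Of 30 Polycomb genes, 17 were not called in each of these pairs. In pB3 against pB2, 6 were higher and 7 lower (median -0.06), and in 687g against Epcam hi 7 were higher and 6 lower (median -0.02), shares near those of all genes. Lower in pB3 were Phf19 (-1.47 ± 0.30, adjusted p = 0.00114) and, among others, Cbx8 (-1.42 ± 0.21, adjusted p = 9.41e-05, edgeR). Of 26 other tested genes within 1 Mb of Cbx8 on chromosome 11, 15 were also lower and 3 higher, with a median of -1.20. Cbx7, like Cbx8 a chromobox gene, was lower in 687g than in Epcam hi (-3.64 ± 0.27, adjusted p = 1.17e-07, edgeR), at 1.56 against 19.5 CPM. Jarid2 (1.15 ± 0.28) and Phc3 (0.87 ± 0.22) were higher in 687g.

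Among 24 Trithorax and MLL genes, 3 were higher and 0 lower in pB3 than in pB2 (median 0.14), fewer in either direction than those shares give, and 8 were higher and 0 lower in 687g than in Epcam hi (median 0.31). Kmt2a, which encodes the MLL methyltransferase that maintains Hox transcription, was 116 ± 2.2 CPM in pB3 against 28.8 ± 11 in pB2 (SD, n = 2 each; log2 2.00 ± 0.24, adjusted p = 1.02e-05, edgeR). In Epcam hi it was 92.0 ± 4.8 CPM and in 687g 129 ± 15 (SD, n = 2 each). It was thus also higher in Epcam hi than in pB2 (log2 1.67, adjusted p = 4.39e-05, edgeR). Between 687g and pB3 it was not called (0.16, adjusted p = 0.672, edgeR). Mllt3 (1.35 ± 0.22) and Kmt2d (1.08 ± 0.24) were also higher in pB3, and Kmt2d (1.06 ± 0.23), Kdm6b (1.03 ± 0.23) and Kmt2c (0.95 ± 0.23) in 687g. In pB3 the HoxA sum was lower than in pB2, and the HoxB sum higher. In Epcam hi and 687g both sums were lower than in pB3.

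Retinoic acid, a vitamin A derivative that activates 3′ Hox genes in embryos, has 17 genes of transport, synthesis, breakdown and reception on the list, of which 13 were tested. In pB3 against pB2, 7 of the 13 were higher and 3 lower (median 0.58); the share lower is that of all genes. Crabp1, which binds retinoic acid in the cytoplasm, was 27.0 ± 0.73 CPM in pB3 and 0.0635 ± 0.015 in pB2 (SD, n = 2 each; log2 8.60 ± 0.49, adjusted p = 7.77e-09, edgeR). Cyp26b1, which degrades retinoic acid, went the other way, at 10.5 ± 1.8 CPM in pB2 and 0.0983 ± 0.044 in pB3 (-6.63 ± 0.55, adjusted p = 3.41e-07). In 687g against Epcam hi, 8 were higher and 2 lower (median 0.91), among them Dhrs3, a retinaldehyde reductase (8.93 ± 0.44, adjusted p = 2.72e-09, edgeR), and the receptors Rara (1.04 ± 0.20) and Rarg (0.90 ± 0.22).

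Of 9 related homeobox genes, Evx1 and Evx2, which flank HoxA and HoxD, and the Cdx, Pdx, Gsx and Mnx genes, none passed the filter. The most counts were in Cdx2, an activator of Hox genes in the trunk, with 5 and 4 in pB3, 1 and 2 in pB2, 1 and 0 in Epcam hi and 0 in 687g.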

How the data were processed

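Per the labels, RNA from cultured cells was made into KAPA mRNA HyperPrep libraries. Reads (single-end) were aligned to GRCm38 by STAR 2.6.1a and counted by strand with featureCounts by the authors, per the series' design text. The deposited files hold raw read counts per gene, whole numbers, 1 file per library and 12442730 to 19149916 counts each. The handling of reads shared between genes is not given in the sources used here. Symbols and exon lengths came from GENCODE M21 (53274 IDs matched, 105 not).

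edgeR 4.0.16 in R 4.3.3 fitted all 8 libraries with 1 coefficient per line, after filterByExpr and TMM scaling. CPM and RPKM are this fit's scaled values. DESeq2 1.42.0, other scalings, no filter, only the 2 lines compared, single libraries left out and a replicate block were alternatives. Scripts were tested on simulated data. Members and gene lists were chosen with earlier results of these data known. Not reported here are 1 of the 39 members and some genes of the lists; the fit and the counts of the lists include them. Folds with tests are given for called members, and for comparisons that did not pass beside them. From each list at most 3 called genes were named per pair of lines, those with the largest log2 fold change among genes that reached 10 CPM in either line. Names of markers, neighbours and genes inside the clusters beyond that were chosen after their values were seen.

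Replicate numbers are shared between lines, but deviations of same-numbered libraries correlated between -0.0983 and 0.173 over 6 pairs of lines, so they were not treated as pairs.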

Additional observations from a re-analysis of the deposited data

Results flagged for a closer look

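For 4 of the 13 tested members, or 30.8%, the change from Epcam hi to 687g differed from the change from pB2 to pB3. This was a test of the difference itself (edgeR, adjusted over all genes), and it called 37.7% of all genes tested, a larger share. Hoxa9, Hoxa11, Hoxa13, Hoxb3, Hoxb6 and Hoxb7 had a line with 0 counts and standard errors of 2767 to 16790. The test could not judge these members. For Hoxa3 the difference was 4.84 ± 0.90 (adjusted p = 0.00071), with 50 counts in 687g, 2 in Epcam hi, and 58 and 80 in pB3 and pB2. This call was kept without any single library and with DESeq2.

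Hoxa4 differed by 4.83 ± 1.57 (adjusted p = 0.0263), with 3 counts in 687g and 1 in Epcam hi, and left-out libraries gave adjusted p values up to 0.174 (without 687g replicate 1). Hoxa5 differed by 3.21 ± 1.16 (adjusted p = 0.0425), with 0.209 without 687g replicate 2. Hoxb4 differed by -8.30 ± 2.83 (adjusted p = 0.035). That value comes mainly from the fitted 8.27 for pB3 against pB2, where pB2 had 0 counts, so its size is no measured fold. The change from Epcam hi to 687g was -0.03 and rests on 1 count in each of these lines. Without Epcam hi replicate 1 the difference was -5.99 and lost its call.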

How the results depend on the processing

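The alternatives were applied to the 35 called comparisons of single members, in pairs of lines or between the 2 contrasts, so that calls gained are not counted here. Of 480 values under alternatives, 440 kept the call, 40 lost it and 0 changed direction. Comparisons that an alternative did not test gave no value. Fitting only the 2 lines compared gave 27 values, none of them a loss. DESeq2 accounted for 8 of the losses and left 1 member called in 687g against Epcam hi (2 with edgeR), and the other 32 came from leaving out a library; other scalings and the replicate block accounted for none. With 1 library left out, the number of members called for pB3 against pB2 ranged from 6 to 10 (10 with all libraries) and for the difference between the contrasts from 1 to 3 (4 with all). A line reduced to 1 library was assumed to vary like the others. With the replicate number as a block, 10, 2, 9 and 10 members were called in the 4 pairs of lines, as without it, although the numbers do not pair the samples. At 2 CPM in place of 1 CPM for detection, 5 members were detected in pB3 and 0 in 687g.

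Without a filter on low counts, 12 members were called in pB3 against pB2 (Hoxb8 and Hoxb9 added), 3 in 687g against Epcam hi (Hoxc13), 10 in Epcam hi against pB2 (Hoxa2) and 12 in 687g against pB3 (Hoxb8 and Hoxc13). Of the 38 members, 21 had at most 10 counts over all libraries, 11 of them 0, and at this depth low expression and silence cannot be told apart for these.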
